A study of Homo sapiens with 12 samples.

Results

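The genes described here code for the parts that hold an epithelial sheet together: cadherins, claudins and other tight junction proteins, desmosome proteins, keratins, and a few regulators of epithelial splicing and transcription. They were taken as the 43 symbols of a named list, and all 43 have a row among the 26334 genes of the deposited table. The libraries came from HK-2, an immortalized line of human renal proximal tubule epithelium, engineered to express the PRCC-TFE3 fusion gene when doxycycline (Dox) is added. PRCC-TFE3 is an oncogenic transcription factor of translocation renal cell carcinoma. Poly(A) RNA was sequenced after 48 h in 4 groups of 3 libraries, described by the submitters as independent biological replicates. The vehicle group received DMSO, the Dox group Dox with DMSO, the inhibitor group MSC2530818 at 100 nM, and the fourth group both agents. MSC2530818 blocks CDK8 and CDK19, the kinases of the Mediator complex. All 4 groups carried the inducible construct and grew in medium with puromycin and blasticidin S. Whether the line is 1 clone is not given, and Dox was not given to cells without the fusion, so the fusion and Dox itself cannot be told apart.

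In a tubule, cadherins join neighbouring cells at the adherens junction and pass the tension to actin through catenins. Claudins seal the space between cells or form ion pores in it, and occludin, tricellulin and the scaffolds of the ZO and cingulin families organise them. Desmosomes tie the cadherins of the desmoglein and desmocollin families, through plakoglobin, plakophilins and desmoplakin, to a cage of keratin filaments. Keratins are obligate pairs of a type I and a type II chain, and KRT8 with KRT18 is the basic pair of simple epithelia such as the kidney tubule.

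Values are FPKM, fragments scaled to transcript length and to the library total, so levels can be set beside each other between genes. FPKM means are given ± SD over n = 3 libraries. Changes are differences of log2(FPKM + 1) ± SE, a scale that understates the change of genes with a low FPKM. A gene was called when its adjusted p in limma, two-sided and adjusted over all 12649 tested genes, was under 0.05. Of the 43 genes, 33 passed the filter of at least 1 FPKM in at least 3 libraries. That filter keeps a gene that reaches 1 FPKM in a single group, so counts below describe the 33 and not the whole list. KRT34 passed it only through the libraries with the inhibitor, and OCLN only through those without it. Fewer cells of a kind and less RNA per cell cannot be told apart in such bulk samples.

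Most of the called keratins and claudins were lower with Dox and higher with the inhibitor, while PKP2 and TJP3 rose with Dox. The plakophilins PKP2 and PKP3 fell with the inhibitor with and without Dox, and several tight junction genes fell with it without Dox. With Dox against vehicle, 3 of the 33 rose and 11 fell, that is 42.4% called, where 17.9% of all tested genes were called (10.6% higher, 7.31% lower). With Dox in the presence of the inhibitor, 5 rose and 11 fell (48.5%, beside 18.2% of all genes, 12.2% higher and 6.06% lower). With the inhibitor against vehicle, 12 rose and 7 fell (57.6%, beside 38% of all genes, 11.7% higher and 26.3% lower). With the inhibitor on top of Dox, 15 rose and 7 fell (66.7%, beside 32.1% of all genes, 11.3% higher and 20.8% lower). The median change of the 33 was -0.11, 0.06, 0.06 and 0.18 in that order, against 0.04, 0.08, -0.12 and -0.08 over all tested genes. For 1 of the 33, CDH6, the Dox change differed between cells with and without the inhibitor (3.03%, beside 2.82% of all genes), and it was more positive with the inhibitor. No gene differed in the negative direction in limma, where 4 had an unadjusted p under 0.05. The call rests on the fit across all libraries, and each group of 3 shows the spread between these cultures only.

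**Figure D1:**
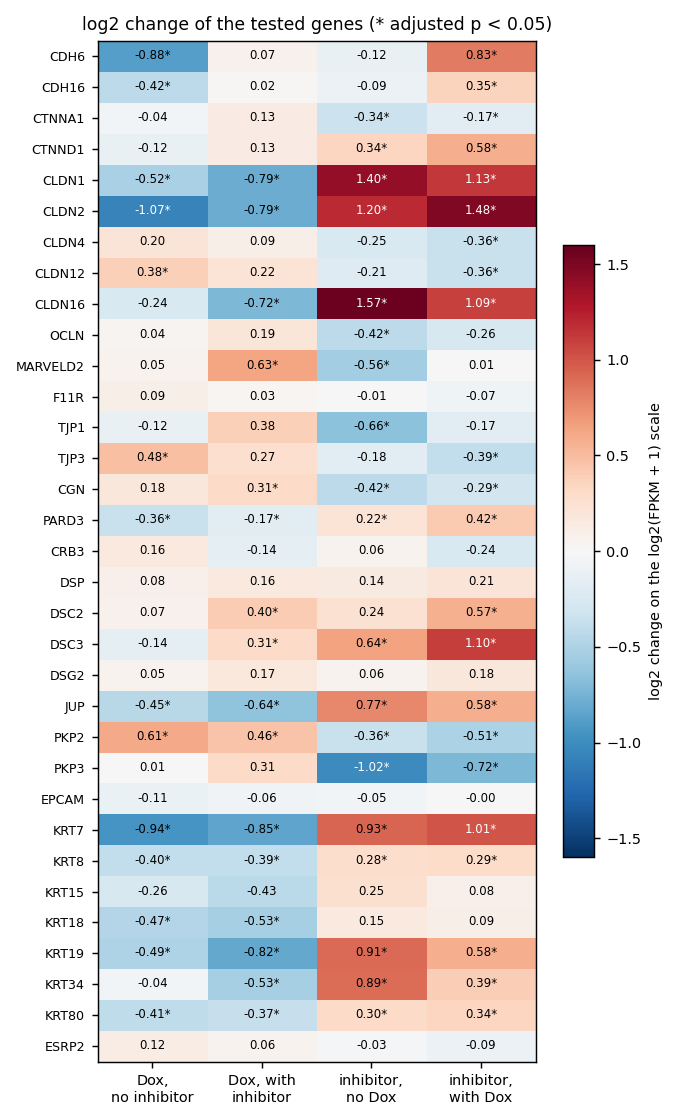
Log2 change of the 33 tested genes in 4 comparisons, with an asterisk where the limma adjusted p is under 0.05; red is higher and blue lower. Every keratin called in a Dox column is blue there. KRT34 without the inhibitor (-0.04) and KRT15 in both Dox columns (-0.26 and -0.43) were not called. CLDN1, CLDN2 and CLDN16 are red in both inhibitor columns, from 1.09 to 1.57.

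TFE3, whose reads include those of the fusion, stood at 35.8 ± 3.1 FPKM in vehicle, 150 ± 4 with Dox, 27.8 ± 1.7 with the inhibitor and 84.2 ± 3.1 with both. Of 14 genes that mark a differentiated proximal tubule, 10 stayed under 1 FPKM in every library, among them the receptors LRP2 and CUBN and the water channel AQP1. PAX8, GGT1 and MME were expressed. All 9 markers of distal tubule and collecting duct and all 6 of endothelium were under 1 FPKM in every library, as were 5 of 7 of fibroblasts and 3 of 4 of podocytes. FPKM sums ran from 429208 to 473950 and were highest in replicate 1 of each group. The median of all genes moved from -0.12 to -0.01 for the inhibitor against vehicle after median-ratio scaling of the libraries. The share of called genes that were higher moved from 59.2% to 43.4% and 43.3% for Dox, from 66.7% to 35.3% and 41% for Dox with the inhibitor, from 30.8% to 55% and 49.7% for the inhibitor, and from 35.3% to 53.9% and 50.3% for the inhibitor on top of Dox, under median-ratio scaling and quantile normalization. Over 11996 tested genes, the rank correlation of log2 change with transcript GC content was -0.38, -0.56, 0.22 and 0.09 in these 4 comparisons. Over the 33 genes it was -0.04, -0.37, 0.03 and -0.23. These points share the same 12 libraries.

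The junction programme of these cells was a partial one. CDH1 (E-cadherin) and CDH3 (P-cadherin), which lie 14608 bases apart on chromosome 16, were at 0.01 FPKM or less and 0.03 or less in every library. GRHL2, a transcription factor that maintains CDH1 in epithelia, was at 0.01 or less, and OVOL1, a repressor of mesenchymal genes, was listed at 0 in all 12. CLDN7 reached at most 0.3, CLDN10 0.12, CLDN3 0.72, KRT17 0.08, KRT81 0.59 and the splicing factor gene ESRP1 0.73 FPKM. These 10 genes were not tested. In contrast KRT8, KRT18, CLDN1, CTNNA1 and KRT80 exceeded 70 FPKM in every library, and EPCAM, DSG2, PARD3, CTNND1 and DSP lay between 25 and 60. Desmosome and keratin transcripts were thus present with CDH1 near 0.

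**Figure D2:**
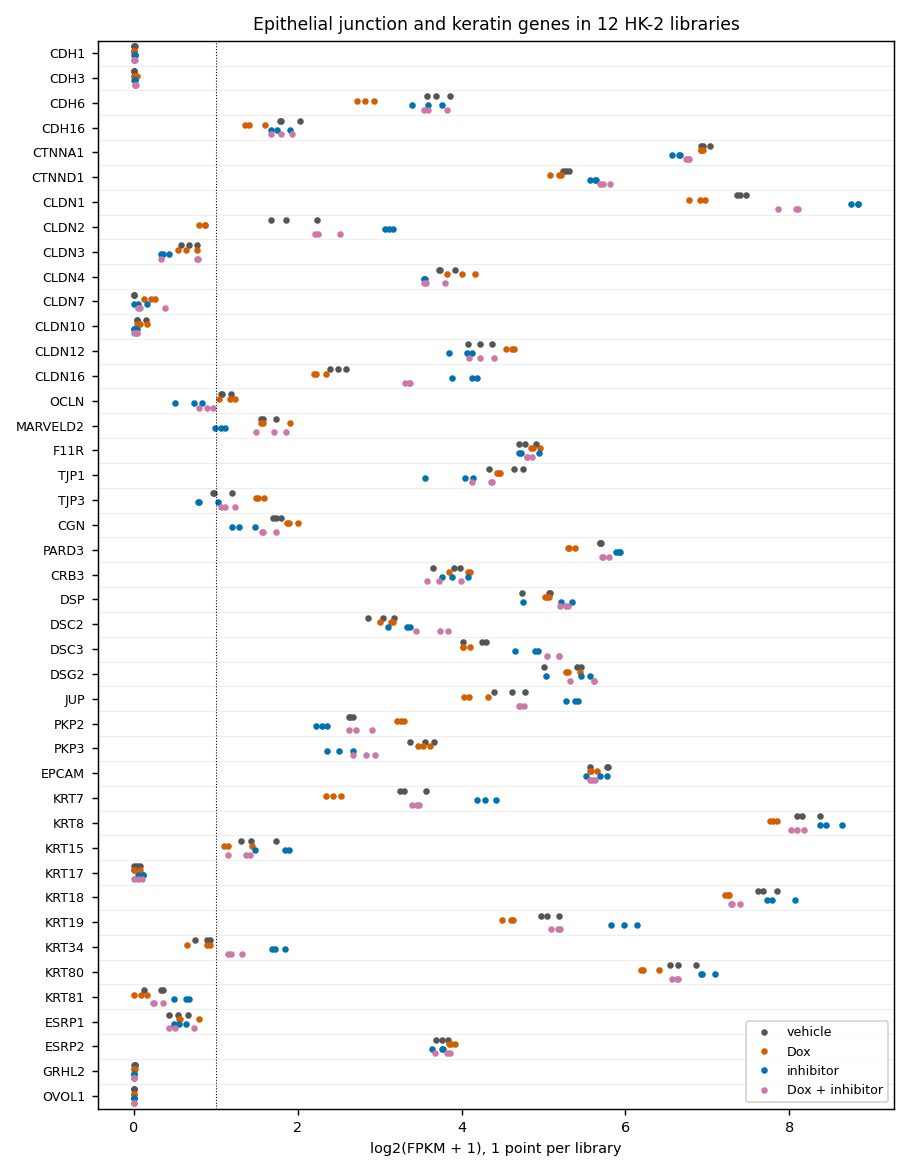
Level of all 43 genes as log2(FPKM + 1), 1 point per library, coloured by group; the dotted line marks 1 FPKM. CDH1, CDH3, GRHL2 and OVOL1 sit at 0 in all groups, while KRT8 and CLDN1 reach between 8 and 9.

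Of the cadherins, CDH6 (K-cadherin, a cadherin of the developing and adult proximal tubule, chromosome 5, 31193750 to 31329146, plus strand, GENCODE v29 on GRCh38) was the gene whose Dox response depended on the inhibitor. It was at 10.9, 11.8 and 13.5 FPKM in vehicle, 5.6, 6.05 and 6.63 with Dox, 9.55, 11.02 and 12.55 with the inhibitor and 11.03, 10.64 and 13.16 with both. The 3 Dox libraries were below the other 9, and the other groups overlapped. CDH6 fell by 0.88 ± 0.11 with Dox (adjusted p = 0.00025), a mean 1.99 times lower, while its difference with Dox in the presence of the inhibitor was 0.07 ± 0.11 (adjusted p = 0.68). The difference of the 2 was 0.95 ± 0.16 (adjusted p = 0.0074), and this call remained under all 22 alternatives run. CDH16, kidney-specific cadherin, had a like order at a lower level, 2.66 ± 0.37 in vehicle, 1.74 ± 0.25 with Dox, 2.44 ± 0.29 with the inhibitor and 2.49 ± 0.31 with both. It fell with Dox (-0.42, adjusted p = 0.019) and rose with the inhibitor on top of Dox (0.35, adjusted p = 0.027), and the difference between the Dox changes was 0.44 (adjusted p = 0.18). The first call ended without any one of DMSO 1, Dox 1 or Dox 3 (-0.40 to -0.33) and without replicate 1 of all groups (-0.31), the second without any one of Dox 1, Dox 3, Dox plus inhibitor 2 or 3 (0.28 to 0.35).

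**Figure D3:**
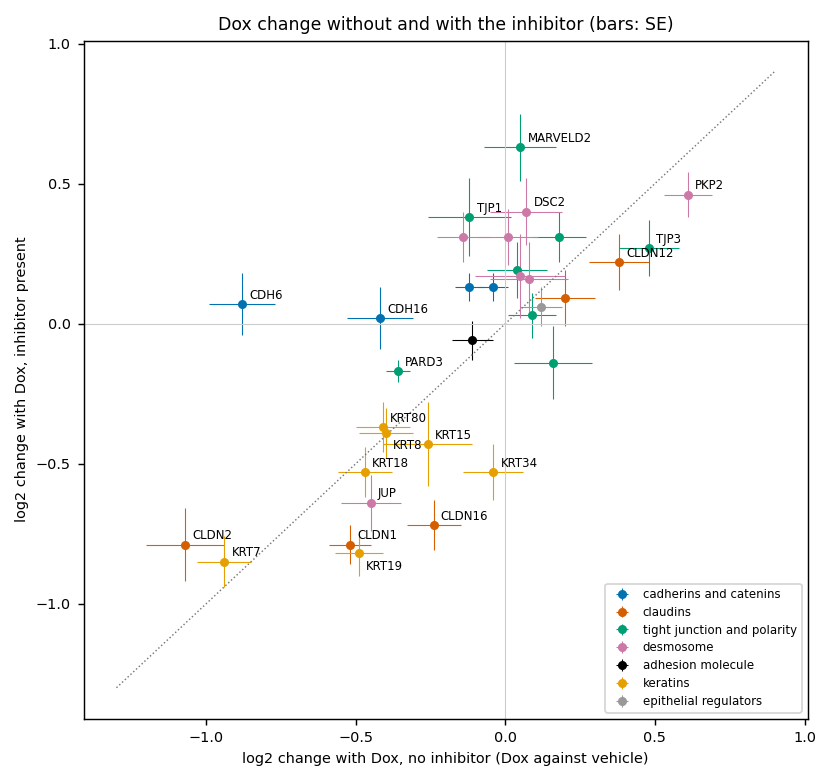
Log2 change with Dox without the inhibitor (x axis) against that with the inhibitor (y axis) for the 33 tested genes; bars are SE, colours the roles, and the dotted line marks equal changes. CDH6 lies far left of the line at -0.88 and 0.07, and most keratins and CLDN1, CLDN2 and CLDN16 lie at the lower left.

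The catenins went in opposite directions with the inhibitor. CTNND1, p120-catenin, which holds cadherins at the membrane, was at 38.7, 36.7 and 37.9 FPKM in vehicle, 35.98, 35.49 and 32.86 with Dox, 49.0, 48.3 and 46.5 with the inhibitor and 55.3, 52.1 and 50.6 with both. The 6 libraries with the inhibitor were above the 6 without it. It rose by 0.34 ± 0.05 with the inhibitor (adjusted p = 0.00055) and by 0.58 ± 0.05 on top of Dox (adjusted p = 1.1e-05). CTNNA1, alpha-catenin, which binds actin, fell with the inhibitor from 124 ± 5 to 98 ± 3.9 FPKM (-0.34, adjusted p = 0.00021, and -0.22 after median-ratio scaling). Its fall on top of Dox (-0.17, adjusted p = 0.017) lost its call after median-ratio scaling (-0.09), after removal of the length and GC trend (-0.09) and without Dox 1 or Dox plus inhibitor 3 (-0.16).

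**Figure D4:**
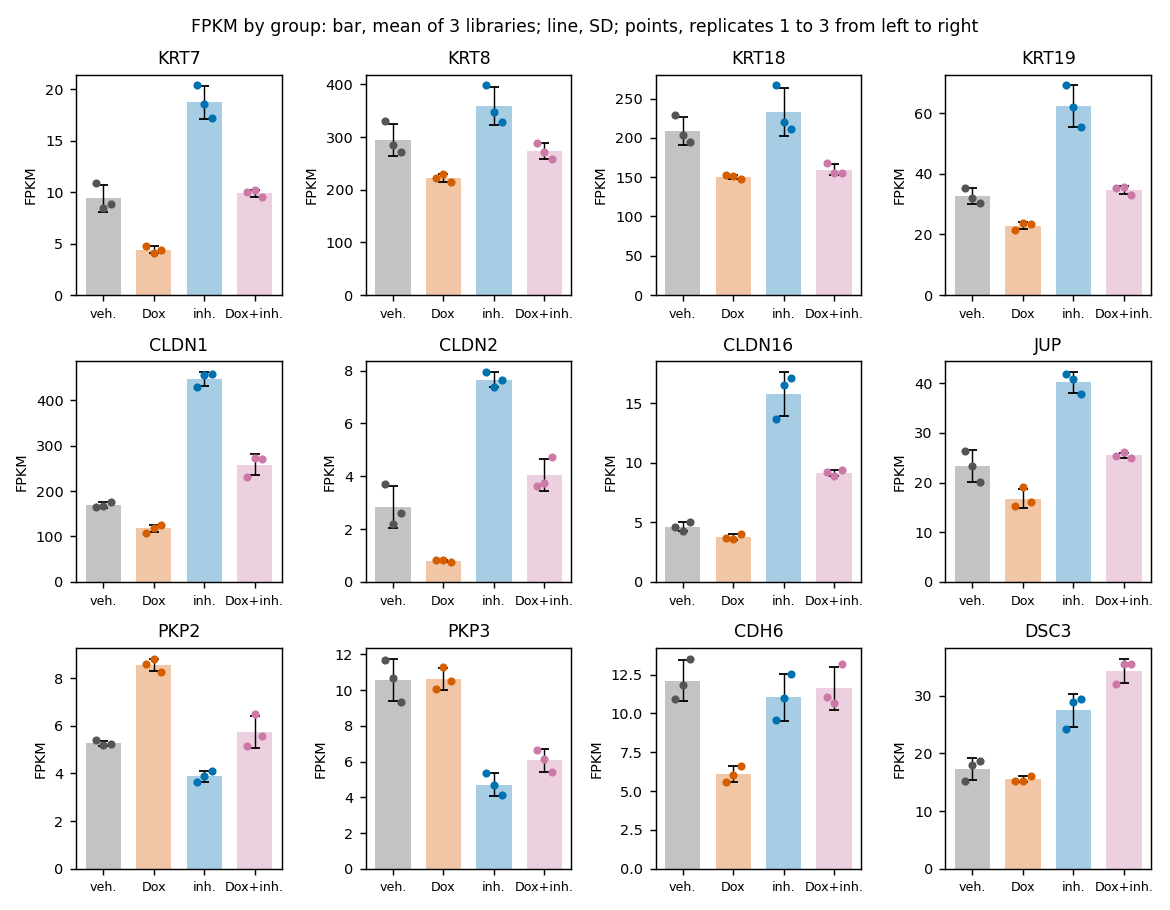
FPKM of 12 genes by group; bars are means of 3 libraries, lines SD, and points replicates 1 to 3 from left to right. KRT7, KRT19, CLDN1, CLDN2 and JUP are lowest with Dox and highest with the inhibitor, PKP2 shows the opposite order, and CDH6 is low with Dox alone, at 6.09 FPKM.

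Among claudins, CLDN1, CLDN2 and CLDN16 rose with the inhibitor, with and without Dox, and all 3 fell with Dox in its presence. Of 5 tested claudins, 3 rose and 0 fell with the inhibitor in limma (1 lower at an unadjusted p under 0.05). Over all genes 11.7% rose and 26.3% fell. On top of Dox 3 claudins rose and 2 fell with the inhibitor (all genes: 11.3% and 20.8%). CLDN1, a sealing claudin (chromosome 3, 190305701 to 190322475, minus strand), was at 164, 168 and 177 FPKM in vehicle, 109, 119 and 125 with Dox, 430.1, 455 and 457 with the inhibitor and 231, 274 and 270.5 with both. The 4 groups did not overlap at all. CLDN1 rose by 1.40 ± 0.07 with the inhibitor (adjusted p = 1.7e-07), a ratio of 2.64, and by 1.13 ± 0.07 on top of Dox. It fell by 0.52 ± 0.07 with Dox (adjusted p = 0.00053) and by 0.79 ± 0.07 in the presence of the inhibitor.

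CLDN16, a claudin for magnesium and calcium reabsorption in the thick ascending limb (chromosome 3, 190322541 to 190412143, plus strand), begins in GENCODE 65 bases from CLDN1, in the opposite direction. It was at 4.62, 4.24 and 5.02 FPKM in vehicle, 3.67, 3.58 and 4.06 with Dox, 13.7, 16.5 and 17.2 with the inhibitor and 9.26, 8.88 and 9.36 with both. As for CLDN1, the groups kept the order Dox, vehicle, both agents, inhibitor without overlap. It rose by 1.57 ± 0.09 with the inhibitor (adjusted p = 2.2e-07) and by 1.09 ± 0.09 on top of Dox, and it fell by 0.72 ± 0.09 with Dox in the presence of the inhibitor. Its change with Dox alone was not called (-0.24, adjusted p = 0.082), but was after median-ratio scaling (-0.28, adjusted p = 0.0455) and in quantile-normalized values (-0.33, adjusted p = 0.0152), with the replicate block (adjusted p = 0.0341), without inhibitor 1 (adjusted p = 0.0303) and after removal of the length and GC trend (-0.36, adjusted p = 0.00215). The difference between both Dox changes was -0.48 (adjusted p = 0.066), and it was called after median-ratio scaling (-0.52, adjusted p = 0.0465), without inhibitor 1 (-0.57) and without replicate 1 of all groups (-0.60). The replicate block (adjusted p = 0.0263) and removal of the length and GC trend (-0.53, adjusted p = 0.00596) gave the call as well.

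The 65 bases between the GENCODE starts of CLDN1 and CLDN16 are shown because both neighbours moved in the same order over the groups. They are read from RefSeq's GRCh38.p14 promoter table at chr3:190322476-190322540 on the minus strand, 5′ to 3′ toward CLDN1, with GC boxes (GGGCGG on either strand) in capitals. CLDN2, whose highest and lowest group means differed most among tested genes of the list, 9.62 times, is shown for comparison by the 250 bases before its RefSeq start, chrX:106918110-106918359 on the plus strand.
CLDN1 and CLDN16 gap: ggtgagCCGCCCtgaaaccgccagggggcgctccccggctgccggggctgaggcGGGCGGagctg
CLDN2: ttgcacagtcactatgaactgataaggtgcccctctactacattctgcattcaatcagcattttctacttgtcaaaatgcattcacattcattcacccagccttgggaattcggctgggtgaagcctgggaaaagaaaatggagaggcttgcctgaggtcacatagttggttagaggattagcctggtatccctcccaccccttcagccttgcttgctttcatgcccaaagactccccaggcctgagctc
The gap is 80% G and C and the CLDN2 window 48.8%. RefSeq starts CLDN1 inside the GENCODE gene. Its 250 bases before CLDN16 are chr3:190387913-190388162 on the plus strand, far from the gap. By RefSeq the gap is thus not the promoter of CLDN16, and a shared promoter was not tested. The following motifs were sought on both strands of the 250 bases before the start of the 22 genes found in that table: CACGTG (the E-box of TFE3 and its family), CAGGTG (the E-box of SNAI and ZEB repressors), TGANTCA (AP-1), AACCNGTT (Grainyhead-like factors) and GGGCGG. The CLDN2 window holds none of these. GGGCGG was present in 12 of the 22 (54.5%), in 64.2% of the promoters of tested genes and in 42.6% of all 35116 promoters. CAGGTG was present in 7 (31.8%), against 15.8% and 17.5%.

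CLDN2, the pore claudin of the proximal tubule for sodium and water, was at 3.7, 2.18 and 2.61 FPKM in vehicle, 0.83, 0.82 and 0.74 with Dox, 7.95, 7.37 and 7.66 with the inhibitor and 3.63, 3.75 and 4.73 with both. Dox libraries were below and inhibitor libraries above all others, and vehicle overlapped with both agents. It fell by 1.07 ± 0.13 with Dox (adjusted p = 0.00018), a mean 3.55 times lower, and by 0.79 ± 0.13 in the presence of the inhibitor. With a pseudocount of 0.1 the first of these was -1.68. It rose by 1.20 ± 0.13 with the inhibitor and by 1.48 ± 0.13 on top of Dox, where the mean was 5.07 times higher. CLDN1 took 81.4% ± 0.61 of the FPKM sum of the 8 claudins in vehicle, 72.9% ± 0.59 with Dox, 90% ± 0.3 with the inhibitor and 85.6% ± 0.55 with both.

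The other claudins showed small changes in the opposite direction. CLDN12, a claudin linked to calcium transport, rose with Dox from 17.8 ± 2 to 23.3 ± 0.83 FPKM (0.38, adjusted p = 0.024) and fell with the inhibitor on top of Dox (-0.36). The first call ended without any one of DMSO 1, DMSO 2, Dox 2 or Dox 3 (0.30 to 0.37), and the second after median-ratio scaling (-0.28) and without any one of Dox 2, Dox 3, Dox plus inhibitor 1 or 2 (-0.36 to -0.29). CLDN4, a sealing claudin of the collecting duct, was at 12.9, 15, 10.7 and 11.5 FPKM in vehicle, Dox, inhibitor and both. It fell with the inhibitor on top of Dox (-0.36, adjusted p = 0.014), a call that ended without Dox 2 or without Dox plus inhibitor 3 (-0.32 to -0.28). Its inhibitor change without Dox was not called (-0.25, adjusted p = 0.059). It was called with the replicate block and without any one of Dox 1, Dox 2 or Dox plus inhibitor 2. Removal of the length and GC trend called it as well (-0.27), and also the change with Dox (0.26, adjusted p = 0.0498, against 0.20). Leaving out replicate 1 of all groups called the Dox change too (0.35, adjusted p = 0.0309). CLDN3, next to CLDN4 on chromosome 7, stayed under 1 FPKM.

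Of 8 other tight junction and polarity genes tested, TJP1, MARVELD2, OCLN and CGN fell and PARD3 rose with the inhibitor without Dox. TJP3, F11R and CRB3 were not called there. With the inhibitor on top of Dox, TJP1 (-0.17, adjusted p = 0.42), MARVELD2 (0.01, adjusted p = 0.95) and OCLN (-0.26, adjusted p = 0.073) were not called in limma. The OCLN change on top of Dox was called with the replicate block, with no intensity trend and without inhibitor 1. With Dox alone 1 of the 8 rose and 1 fell (all genes: 10.6% and 7.31%). TJP1, the scaffold ZO-1, was at 19.2, 23.9 and 25.9 FPKM in vehicle, 21.2, 20.6 and 21.0 with Dox, 10.7, 15.5 and 16.6 with the inhibitor and 16.5, 19.7 and 19.5 with both. The inhibitor libraries were below all vehicle libraries but overlapped with those of both agents. It fell by 0.66 ± 0.14 with the inhibitor (adjusted p = 0.0042). MARVELD2, tricellulin, which seals the corners where 3 cells meet, was at 2.32, 1.98 and 1.94 FPKM in vehicle, 2.76, 1.92 and 1.97 with Dox, 1.16, 1.09 and 0.99 with the inhibitor and 2.28, 2.62 and 1.82 with both. The 3 inhibitor libraries were below the other 9. It fell by 0.56 ± 0.12 with the inhibitor (adjusted p = 0.0032) and rose by 0.63 ± 0.12 with Dox in its presence (adjusted p = 0.005). With a pseudocount of 0.1 these were -0.88 and 0.98. OCLN, occludin, which follows MARVELD2 on chromosome 5 at a distance of 47961 bases, fell with the inhibitor from 1.16 ± 0.1 to 0.623 ± 0.18 FPKM (-0.42, adjusted p = 0.0079). OCLN passed the filter only through libraries without the inhibitor, where it is high, so this call is not independent of the filter. The OCLN value was -0.83 with a pseudocount of 0.1, and its call ended once the trend over transcript length and GC content was removed (-0.26).

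CGN, cingulin, which links ZO proteins to myosin, fell with the inhibitor from 2.35 ± 0.12 to 1.51 ± 0.25 FPKM (-0.42, adjusted p = 0.0031). It also rose with Dox in the presence of the inhibitor (0.31, adjusted p = 0.036) and fell with the inhibitor on top of Dox (-0.29, adjusted p = 0.025). Both of these ended after median-ratio scaling (0.25 and -0.23) and quantile normalization (0.21 and -0.22). The first ended without any one of DMSO 2, Dox 3, inhibitor 1 or 2 or Dox plus inhibitor 1 to 3 (0.25 to 0.34), the second without any one of Dox 2, Dox 3, Dox plus inhibitor 1 or 2 (-0.30 to -0.26). Its promoter is printed because, with that of CRB3, it was 1 of 2 among the 22 (9.09%) with CACGTG, a motif in 8.43% of promoters of tested genes and 6.34% of all. It was also the 1 with AACCNGTT (4.55%, beside 1.16% and 1.49%). The window is chr1:151511137-151511386, plus strand, GRCh38.p14 from RefSeq. Capitals mark CACGTG, AACAGGTT and the GC boxes.
CGN: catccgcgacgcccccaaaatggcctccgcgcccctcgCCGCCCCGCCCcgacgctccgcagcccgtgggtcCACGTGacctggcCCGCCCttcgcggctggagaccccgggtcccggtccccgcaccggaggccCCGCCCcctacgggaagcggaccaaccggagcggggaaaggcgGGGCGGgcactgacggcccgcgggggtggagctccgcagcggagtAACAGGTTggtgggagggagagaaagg
CACGTG begins 178 bases and AACAGGTT 27 bases before the RefSeq start. With Dox alone the log2 difference was 0.18 for CGN (adjusted p = 0.19) and 0.16 for CRB3, a Crumbs polarity protein (adjusted p = 0.41), neither called. A match in the letters does not show that a factor binds there.

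TJP3, ZO-3, rose with Dox from 1.07 ± 0.19 to 1.89 ± 0.1 FPKM (0.48, adjusted p = 0.0057) and fell with the inhibitor on top of Dox (-0.39, adjusted p = 0.01). On the scale with a pseudocount of 0.1 these were 0.77 and -0.62. PARD3, a polarity scaffold that places the junction, kept the group order of CLDN1 within a narrow range, at 50.8 ± 0.22, 39.3 ± 1.2, 59.3 ± 0.93 and 52.8 ± 1.9 FPKM in vehicle, Dox, inhibitor and both. It fell by 0.36 ± 0.04 with Dox (adjusted p = 0.0002) and by 0.17 in the presence of the inhibitor, and rose by 0.22 and 0.42 with the inhibitor. The fall in the presence of the inhibitor lost its call without any one of inhibitor 2 or 3 or Dox plus inhibitor 2 or 3 (-0.16 to -0.15). After median-ratio scaling it was -0.25, and the rise without Dox was 0.34. F11R, the adhesion molecule JAM-A, and CRB3 were called in 0 of the 4 comparisons. F11R stood between 26.8 and 28.7 FPKM in all groups. Of the 31-base words of its longest coding transcript, however, 43.3% occur in other genes, chiefly the read-through gene AL591806.3.

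Desmosome genes split between their parts. JUP, plakoglobin, which is shared by desmosomes and adherens junctions (chromosome 17, 41754604 to 41786931, minus strand), was at 26.5, 23.4 and 20.1 FPKM in vehicle, 15.31, 19.02 and 16.04 with Dox, 41.8, 40.9 and 37.8 with the inhibitor and 25.3, 26.1 and 25.0 with both. Dox libraries were below and inhibitor libraries above all others. It fell by 0.45 ± 0.1 with Dox (adjusted p = 0.0087) and by 0.64 ± 0.1 with Dox and the inhibitor, and rose by 0.77 ± 0.1 and 0.58 ± 0.1 with the inhibitor. The call for Dox alone ended without replicate 1 of all groups (-0.30).

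The plakophilins PKP2 and PKP3, which cluster desmosomal cadherins, fell with the inhibitor, where plakoglobin rose. PKP2 was at 5.39, 5.18 and 5.22 FPKM in vehicle, 8.58, 8.8 and 8.27 with Dox, 3.65, 3.9 and 4.12 with the inhibitor and 5.17, 6.49 and 5.57 with both. Dox libraries were above and inhibitor libraries below all others. It rose by 0.61 ± 0.08 with Dox (adjusted p = 0.00021) and by 0.46 ± 0.08 in the presence of the inhibitor, and fell by 0.36 and 0.51 with the inhibitor. PKP3 was at 11.7, 10.7 and 9.33 FPKM in vehicle, 10.1, 11.3 and 10.5 with Dox, 5.36, 4.67 and 4.11 with the inhibitor and 6.66, 6.15 and 5.39 with both. The 6 libraries with the inhibitor were all below the 6 without it. PKP3 fell by 1.02 ± 0.1 with the inhibitor (adjusted p = 2.2e-05) and by 0.72 ± 0.1 on top of Dox. Its Dox change was 0.01 ± 0.1 without the inhibitor and 0.31 ± 0.1 with it, neither called. The latter was called with the replicate block, without any one of DMSO 1, DMSO 3 or inhibitor 1, and without replicate 1 of all groups. Removal of the length and GC trend also gave that call (0.465, adjusted p = 0.000281). It gave a call for the difference between both Dox changes too (0.37, adjusted p = 0.0215).

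Both desmocollins rose with the inhibitor on top of Dox, and DSC3 also without Dox. DSC3, a desmosomal cadherin typical of stratified epithelia (16024 bases from DSC2 on chromosome 18), was at 15.16, 17.98 and 18.72 FPKM in vehicle, 15.2, 15.2 and 16.1 with Dox, 24.2, 28.9 and 29.4 with the inhibitor and 31.9, 35.5 and 35.5 with both. The 6 libraries with the inhibitor were all above the 6 without it. DSC3 rose by 0.64 ± 0.09 with the inhibitor (adjusted p = 0.00026) and by 1.10 ± 0.09 on top of Dox (adjusted p = 5.4e-06). The difference between the 2 inhibitor responses, which equals that between the 2 Dox responses, was 0.46 (adjusted p = 0.098), and was called without DMSO 1 (0.54) and without replicate 1 of all groups (0.49). It was also called with the replicate block (adjusted p = 0.00957) and after removal of the length and GC trend (0.38, adjusted p = 0.0283). DSC2, its relative in simple epithelia, was at 6.26, 7.23 and 8.06 FPKM in vehicle, 7.01, 7.94 and 7.83 with Dox, 7.61, 9.11 and 9.32 with the inhibitor and 9.9, 13.2 and 12.3 with both. The libraries with both agents were above all others. DSC2 rose by 0.57 ± 0.12 with the inhibitor on top of Dox (adjusted p = 0.0031), while the change without Dox was 0.24 (adjusted p = 0.12, and 0.35 with a call after either rescaling; the replicate block, removal of the length and GC trend and leaving out replicate 1 of all groups also gave the call).

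Both desmocollins were also called for Dox in the presence of the inhibitor, at 0.40 for DSC2 and 0.31 for DSC3 (adjusted p = 0.035 and 0.036). These calls ended with median-ratio scaling (0.32 and 0.23), quantile normalization (0.30 and 0.26) and no filter. With the trend over length and GC content removed the values were 0.06 and 0.03. The transcripts have a GC content of 37.9% and 39.9%, the lowest 2 among the 33 apart from OCLN at 39.9%. The DSC2 call was also lost without any one of DMSO 2, Dox 2 or 3, inhibitor 1 or 2 or Dox plus inhibitor 2 or 3 (0.32 to 0.43), the DSC3 call without any one of the same libraries or Dox 1 (0.23 to 0.35). DSG2, a desmoglein, and DSP, desmoplakin, which joins the plaque to keratin, were called in 0 of the 4 comparisons, at 38.4 to 45.1 and 30.4 to 37.2 FPKM over the groups. Their replicate SDs reached 7.7 and 7.1 FPKM. Without replicate 1 of all groups, DSG2 was called for the inhibitor on top of Dox (0.27, adjusted p = 0.0152), and DSP both there (0.24, adjusted p = 0.0122) and without Dox (0.20, adjusted p = 0.0195). DSP was also called for the inhibitor without inhibitor 1 (0.32, adjusted p = 0.0247). After removal of the length and GC trend DSG2 was called for the inhibitor without Dox (0.23, against 0.06) and with it (0.28, against 0.18).

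Most tested keratins fell with Dox, without the inhibitor and in its presence. Of 7 tested keratin genes, 5 fell and 0 rose with Dox in limma (0 also at an unadjusted p under 0.05). Over all genes 7.31% fell and 10.6% rose. In the presence of the inhibitor 6 fell and 0 rose with Dox (all genes: 6.06% and 12.2%). With the inhibitor 5 rose and 0 fell without Dox (all genes: 11.7% and 26.3%). On top of Dox 5 rose and 0 fell as well (all genes: 11.3% and 20.8%). KRT34, counted among these rises and among the 6 falls, passed the filter only through libraries with the inhibitor. KRT7, a type II keratin of ducts and of injured tubules (chromosome 12, 52232520 to 52252186, plus strand), had the largest fold among the 5 that fell with Dox. It was at 10.9, 8.48 and 8.82 FPKM in vehicle, 4.79, 4.09 and 4.37 with Dox, 20.4, 18.6 and 17.2 with the inhibitor and 9.99, 10.2 and 9.53 with both. The Dox libraries were all below the vehicle libraries and the inhibitor libraries all above them, while those with both agents overlapped with vehicle. KRT7 fell by 0.94 ± 0.09 with Dox (adjusted p = 4.6e-05) and by 0.85 ± 0.09 with Dox in the presence of the inhibitor. It rose by 0.93 ± 0.09 with the inhibitor (adjusted p = 2e-05) and by 1.01 ± 0.09 on top of Dox.

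KRT19, a small type I keratin without a tail domain (chromosome 17, 41523617 to 41528308, minus strand), was at 35.4, 31.9 and 30.3 FPKM in vehicle and 21.6, 23.8 and 23.4 with Dox. It was at 69.3, 62.0 and 55.5 with the inhibitor and 35.3, 35.7 and 33.1 with both. Every inhibitor library exceeded every other library, and the Dox libraries were below all others. The falls with Dox were 0.49 ± 0.08 (adjusted p = 0.002) and, with the inhibitor, 0.82 ± 0.08 (adjusted p = 0.00011), and the difference between the 2 falls was not called (-0.33, adjusted p = 0.20). It was called once the length and GC trend was removed (-0.29, adjusted p = 0.0187, and 0.0206 with the replicate block). Its neighbour KRT15, which starts 1087 bases beyond the end of KRT19 and is a keratin of basal cells, lay at 1.15 to 2.7 FPKM and was called in 0 of the 4 comparisons, though for Dox in the presence of the inhibitor it was called with the replicate block and without DMSO 1 or inhibitor 3.

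The abundant pair moved less. KRT8 (chromosome 12, 52897187 to 52949954, minus strand) stood at 295 ± 30 FPKM in vehicle, 223 ± 7.1 with Dox, 358 ± 36 with the inhibitor and 273 ± 15 with both. It fell with Dox by 0.40 ± 0.09 (adjusted p = 0.0073), fell by 0.39 with Dox in the presence of the inhibitor, and rose with the inhibitor by 0.28 and 0.29. The vehicle and inhibitor libraries of KRT8 overlapped. KRT18, its type I partner, was at 229, 203 and 195 FPKM in vehicle, 152, 151 and 147 with Dox, 267, 220 and 211 with the inhibitor and 168, 156 and 155 with both. Both groups with Dox lay below both groups without it. KRT18 fell by 0.47 ± 0.09 and 0.53 ± 0.09 with Dox (adjusted p = 0.0031 and 0.0023) and was not called for the inhibitor (0.15 and 0.09, adjusted p = 0.20 and 0.49). After median-ratio scaling the inhibitor call of KRT18 without Dox was made (0.27, adjusted p = 0.0347), as it was with the replicate block (adjusted p = 0.0459) and after removal of the length and GC trend (0.17, adjusted p = 0.0185). The ratio of KRT8 to KRT18 FPKM was 1.41 ± 0.026 in vehicle, 1.48 ± 0.035 with Dox, 1.54 ± 0.047 with the inhibitor and 1.71 ± 0.042 with both, a description for which no test was run.

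Replicate 1 held the highest KRT18 value in 4 of 4 groups and the highest KRT8 value in 3 of 4. Without replicate 1 of all groups, the calls of KRT7, KRT8, KRT18 and KRT19 for Dox all remained. The KRT8 calls for the inhibitor ended without any one of DMSO 2, DMSO 3 or inhibitor 1 (0.20 to 0.26) and, on top of Dox, without any one of Dox 1, Dox 3, Dox plus inhibitor 1 or 2 (0.25 to 0.29). The call for Dox in the presence of the inhibitor ended without Dox plus inhibitor 3 (-0.35). KRT8 and KRT18 overlap by 1084 bases on opposite strands. Of the 31-base words of the longest coding KRT18 transcript, 53.3% also occur in other genes of that annotation, pseudogenes included. The library kit keeps strand, but whether the counting used it is not given, so the split of reads between the pair and their copies is uncertain.

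KRT80, a type II keratin found near desmosomes in many epithelia, stood at 102 ± 12, 76.3 ± 6.6, 126 ± 8.5 and 96.8 ± 2.4 FPKM in vehicle, Dox, inhibitor and both. It fell by 0.41 and 0.37 with Dox and rose by 0.30 and 0.34 with the inhibitor, each called. Its inhibitor call ended without any one of DMSO 2, DMSO 3 or inhibitor 1 (0.23 to 0.28), and its Dox call in the presence of the inhibitor without Dox plus inhibitor 3 (-0.35). KRT34, a hair keratin, was at 0.91, 0.68 and 0.86 FPKM in vehicle, 0.57, 0.91 and 0.85 with Dox, 2.3, 2.58 and 2.22 with the inhibitor and 1.28, 1.5 and 1.21 with both. The inhibitor libraries were above all others, and KRT34 rose with the inhibitor by 0.89 ± 0.1 without Dox (adjusted p = 4.4e-05) and by 0.39 ± 0.1 with it. With a pseudocount of 0.1 these changes were 1.43 and 0.72, and without replicate 1 of all groups the second call ended (0.32). KRT34 fell by 0.53 ± 0.1 with Dox in the presence of the inhibitor (adjusted p = 0.0048). Of the 31-base words of its longest coding transcript 21.8% occur in other genes, chiefly KRT33B, which was at 0.14 FPKM or less.

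Summed over the 9 keratins of the list, FPKM was 651 ± 64 in vehicle, 479 ± 15 with Dox, 803 ± 83 with the inhibitor and 577 ± 25 with both. Type II chains made up 407, 304, 503 and 380 FPKM of these sums and type I chains 244, 175, 300.0 and 197. KRT7 and KRT19 together took 6.44% ± 0.053 of the sum in vehicle, 5.71% ± 0.22 with Dox, 10.1% ± 0.28 with the inhibitor and 7.73% ± 0.24 with both. So the share of the 2 ductal keratins was highest in the inhibitor libraries, which do not overlap with the other groups.

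EPCAM, an adhesion molecule of simple epithelia, and ESRP2, a splicing factor that favours epithelial isoforms, were called in 0 of the 4 comparisons. EPCAM lay between 47.4 and 51.4 FPKM and ESRP2 between 12.2 and 13.7 over the group means. The widest of the 4 changes was -0.11 for EPCAM and 0.12 for ESRP2 (adjusted p = 0.35 and 0.25). After removal of the length and GC trend both were called for Dox, at -0.18 and 0.14 (adjusted p = 0.043 and 0.0305). With the replicate block added to that, EPCAM was also called for Dox in the presence of the inhibitor (-0.18, adjusted p = 0.016). In all, 7 of the 33 genes were called in 0 of the 4 comparisons: CRB3, DSG2, DSP, EPCAM, ESRP2, F11R and KRT15. In 9 the call was made in each of the 4: CLDN1, CLDN2, JUP, KRT7, KRT8, KRT19, KRT80 and PARD3, all lower with Dox and higher with the inhibitor, and PKP2, with the reverse signs. These comparisons share libraries, so the signs are given side by side and not as separate evidence.

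For Dox in the presence of the inhibitor, libraries with the same replicate number deviated together, and with the replicate number as a block 10 of the 33 rose and 12 fell. The genes added were CTNNA1 (0.13), CTNND1 (0.13), CLDN12 (0.22), TJP1 (0.38) and PKP3 (0.31) among the rises and KRT15 (-0.43) among the falls, with adjusted p of 0.0244, 0.033, 0.0122, 0.0157, 0.0132 and 0.0216 in limma. The rises in this comparison were few under rescaling, with 2 on median-ratio scaled and 3 on quantile-normalized values, and their number dropped to 2 or 3 without any one of DMSO 2, Dox 2 or 3, inhibitor 2 or Dox plus inhibitor 2 or 3. The 11 falls stayed at 11 under both rescalings. The 7 falls with the inhibitor on top of Dox became 4 after median-ratio scaling and 4 without Dox 2. For the inhibitor against vehicle, same-numbered libraries also deviated together, and with the block 14 rose and 9 fell, against 12 and 7.

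Other genes of the same structures were read from lists compiled from general knowledge. Of 11 further adherens junction genes tested, 4 rose and 4 fell with the inhibitor (all genes: 11.7% and 26.3%), and 5 rose on top of Dox (all genes: 11.3%). CDH2 (N-cadherin), present where CDH1 was not, stood at 53.4 ± 1.4 FPKM in vehicle, 44.5 with Dox, 88.2 with the inhibitor and 81.2 with both, a rise of 0.71 with the inhibitor and 0.85 on top of Dox (adjusted p = 5.9e-07 and 1.4e-07). The actin linkers VCL (vinculin) and LIMA1 rose with the inhibitor by 0.86 and 1.14, and by 1.07 and 0.91 on top of Dox. Of 24 further tight junction and polarity genes, 3 rose and 8 fell with the inhibitor, shares near the 11.7% and 26.3% of all genes. With Dox 1 fell (all genes: 7.31%). AMOT, an angiomotin, fell by 0.74 with the inhibitor, and PRKCZ, an atypical protein kinase C, fell by 0.67 with it on top of Dox. MPP5 (PALS1), the partner of Crumbs, fell by 0.67 with the inhibitor and rose by 0.67 with Dox in its presence.

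Of 5 further desmosome and plaque genes, 3 fell with Dox (all genes: 7.31%), among them EVPL (envoplakin) at -0.50, which also fell by 0.61 in the presence of the inhibitor. Of 4 gap junction genes, 2 fell and 1 rose with Dox (all genes: 7.31% and 10.6%). GJA1 (connexin 43) fell by 0.45 with Dox and rose by 0.67 with the inhibitor on top of it. Of 44 other keratin and keratinocyte-associated genes, 2 were tested and 41 stayed under 1 FPKM in every library. KRT10 fell with the inhibitor by 0.42 and 0.35. Of 3 further claudin family genes tested, CLDN11 fell with Dox (-0.35 and -0.29).

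Of 12 further epithelial regulators and epithelial genes tested, 3 rose and 2 fell with Dox (all genes: 10.6% and 7.31%), and 3 rose and 4 fell with the inhibitor (all genes: 11.7% and 26.3%). RBM47, an RNA-binding protein of epithelial splicing, stood at 11.1 FPKM in vehicle, 15.5 with Dox, 3.21 with the inhibitor and 7.81 with both. It rose with Dox by 0.44 and 1.06 and fell with the inhibitor by 1.52 and 0.90, and its Dox changes differed by 0.62 (adjusted p = 0.0029). ERBB3 rose by 0.88 with Dox, and AP1M2, an adaptor for basolateral sorting, fell by 0.68 and 0.61 with the inhibitor. Of 6 tested mesenchymal regulators and filament genes, 2 fell with Dox, NES and VIM (all genes: 7.31%), and 2 fell with the inhibitor (all genes: 26.3%). SNAI1, a repressor of CDH1, fell by 0.89 and 0.67 with the inhibitor; its level without Dox went from 9.72 to 4.78 FPKM. NES (nestin) fell by 0.55 with Dox. VIM (vimentin) stood at 652, 515, 639 and 612 FPKM in vehicle, Dox, inhibitor and both, so this mesenchymal filament gene was expressed beside KRT8 and KRT18 in every group. ZEB1 was at 3.06 to 4.69 FPKM and called in 0 of the 4 comparisons.

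Single markers of other cell types moved with Dox and with the inhibitor. Summed over the 7 fibroblast markers, FPKM was 6.17 to 6.79 in vehicle, 10.7 to 12 with Dox, 4.77 to 7.15 with the inhibitor and 5.66 to 7.04 with both, and LUM rose with Dox from 2.17 to 7.48 FPKM (1.45, adjusted p = 0.0012) and fell with the inhibitor on top of it (-1.15, adjusted p = 0.0029), while PDGFRA, PDGFRB, DCN, COL3A1 and POSTN were under 1 FPKM in every library. CD68, a lysosomal protein gene of macrophages and other cells, stood at 38.6 ± 4.1 FPKM in vehicle, 56 ± 2.8 with Dox, 27.9 ± 2.8 with the inhibitor and 31 ± 2.4 with both, and it rose with Dox by 0.53 (adjusted p = 0.0023). It fell with the inhibitor by 0.46 (adjusted p = 0.0026) and on top of Dox by 0.83 (adjusted p = 5e-05). PTPRC, CD3E and LYZ, other genes of leukocytes, were under 1 FPKM in every library. Of 7 markers of injured proximal tubule 3 were tested, and all 3 fell with Dox alone (all genes: 7.31%): HAVCR1 (-0.39), VIM (-0.34) and CD24 (-0.40). In the presence of the inhibitor none of them fell with Dox: HAVCR1 (0.10) and VIM (-0.06) were not called, and CD24 rose (0.32, adjusted p = 0.022). The 2 Dox changes differed in limma for HAVCR1 (0.50, adjusted p = 0.023) and CD24 (0.72, adjusted p = 0.0068). HAVCR1 (-0.39) and CD24 (-0.57) also fell with the inhibitor without Dox, and on top of Dox neither was called. Untested members of that list, at low levels, did not share this order. In vehicle, Dox, inhibitor and both, PROM1 stood at 0.08, 0.227, 0.64 and 0.47 FPKM and SOX9 at 0.12, 0.0467, 0.563 and 0.26. LCN2 stood at 0.547, 1.03, 0.56 and 0.393 FPKM, and VCAM1 was at 0 in every library. The summed level of that list was 783 to 841 FPKM in vehicle, 628 to 645 with Dox, 710 to 804 with the inhibitor and 723 to 754 with both. Most of each sum was VIM, with means of 652, 515, 639 and 612 FPKM in that order. The part of these genes in the junction and keratin values was not tested.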

How the data were processed

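The deposited table holds FPKM per gene for 12 libraries, computed by the authors; per the submitters' processing notes Trim Galore 0.6.7, Salmon 1.9.0 and the builds GRCh38.p13 and hg38 were used, with no role or order given. The step from Salmon to FPKM is not given in the sources used here. FPKM are not counts, and whole fragments could not be recovered from them, so the depth is unknown and no counting intervals are given. All columns matched a sample by its title.

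Genes with at least 1 FPKM in at least 3 libraries (12649 of 26334) were fitted with limma 3.58.1 in R 4.3.3 on log2(FPKM + 1), as 4 group means with an intensity trend and 8 residual degrees of freedom. Two-sided p-values were adjusted by Benjamini-Hochberg over all tested genes, and the procedure was tested on simulated data. The same tool gives every adjusted p. The difference between both Dox changes was tested as an interaction. Genes of the list called with an absolute log2 change of at least 0.5 were given with all library values, and other lists by at most 3 genes past that size; KRT10, CLDN11, VIM, ZEB1 and the marker genes were added after their values were seen. The members and lists were chosen with earlier results of these data known.

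Same-numbered inhibitor and Dox plus inhibitor libraries deviated together from their group means (r = 0.549, 0.133 and 0.337 over genes for replicates 1, 2 and 3). Vehicle and inhibitor libraries did so as well (r = 0.686, 0.097 and 0.505), so the blocked fit is given beside both comparisons. This pairing comes from the values, not from the labels. Alternatives were another pseudocount (0.1), no filter, a mean of at least 5 FPKM, no intensity trend, median-ratio scaling, quantile normalization, a replicate block and each library left out. Leaving out replicate 1 of all groups and removing the trend over transcript length and GC content, alone and with the block, were added after seeing the data. Length and GC content were found for 11996 tested genes (94.8%). Positions are from GENCODE v29, and promoters from RefSeq (GRCh38.p14), which matched 22 of the 43 symbols. The count and sum of the leukocyte marker list are not reported here.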

Additional observations from a re-analysis of the deposited data

Results flagged for a closer look

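The Dox change of CDH6 differed between cells with and without the inhibitor by 0.95 on the log2 scale (interaction test in limma, adjusted p = 0.00744). All 3 Dox libraries were below all 3 vehicle libraries, while the libraries with the inhibitor and with both agents overlapped.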

How the results depend on the processing

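Of 165 results for single genes (33 genes in 5 comparisons), 72 were called, 53 of these kept the call under each alternative run, 19 lost it under at least 1, and 0 reversed. There were 22 alternatives, or 21 for genes left out by the filter on a mean of 5 FPKM. An uncalled change was given no direction. Numbers of genes called moved by over 1.5 times as follows. With Dox, 5 rose, against 3, once the length and GC trend was removed, and with the replicate block added to that 5 rose and 18 fell, against 11. With Dox in the presence of the inhibitor, 2 rose, against 5, with no filter, 3 with a mean of at least 5 FPKM, 2 after median-ratio scaling, 3 after quantile normalization, 10 with the replicate block, and 2 to 6 with single libraries left out. With the inhibitor, 4 fell, against 7, with a mean of at least 5 FPKM. With the inhibitor on top of Dox, 4 fell, against 7, after median-ratio scaling, and 4 to 8 with single libraries left out. The difference between the Dox changes was called higher in 1 and lower in 0. These numbers became 4 and 2 with the replicate block. They were 3 and 1 when replicate 1 of every group was left out. Removing the length and GC trend gave 3 and 2, or 5 and 3 together with the replicate block. It was called lower in 1 after median-ratio scaling. With single libraries left out it was called higher in 1 to 2 and lower in 0 to 1. The cause of these shifts was not tested, apart from the fewer genes tested under the stricter filter. Over all genes the replicate block raised the calls from 2269 to 3741 for Dox and from 4063 to 5239 for the inhibitor on top of Dox, where the numbers mark no shared batch in the labels and same-numbered libraries did not all deviate together. The block raised them from 4802 to 6167 for the inhibitor against vehicle and from 2304 to 4548 for Dox in the presence of the inhibitor. It raised them from 357 to 666 for the difference between the Dox changes. The unknown depth limits what can be said of genes near 1 FPKM.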
